A study of Mus musculus with 16 samples.

Results

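The genotype difference of lung group 2 innate lymphoid cells (ILC2s) in the basal condition, IL-7 without any alarmin or neuropeptide, was described from 4 of the 16 mRNA-Seq libraries of the series, 2 of WT and 2 of Pac1-/- ILC2s. These are all the libraries that the sample labels assign to IL-7 alone. The mice were 6 to 8 weeks old, on the C57BL/6J background, and matched for sex and age, and Pac1-/- mice lack a functional *Dusp2* gene throughout the body, so that the deletion is not restricted to ILC2s. Sorted lung ILC2s were expanded for 1 to 2 weeks with IL-2 at 50 ng/mL and IL-7 at 100 ng/mL and were then kept for 4 hours with IL-7 at 100 ng/mL. About 500 cells entered each library, and full-length cDNA was amplified before sequencing. The other 12 libraries, which also received IL-33 at 100 ng/mL, either alone or with the neuropeptide CGRP or NMU at 500 ng/mL, had the same 2 genotypes with 2 libraries per genotype and treatment, and they serve as a comparison that the IL-7 contrast did not use. Neither the labels nor the methods say whether replicate libraries, or libraries of different treatments, came from separate mice or cultures. P values therefore measure the spread between these libraries, which may be technical. The other 12 libraries may also not be independent of the IL-7 libraries.

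ILC2s are tissue-resident lymphocytes that act without antigen recognition, depend on IL-7 for survival, and release type 2 cytokines such as IL-5 and IL-13 when alarmins activate them. PAC1, the product of *Dusp2*, is a nuclear dual-specificity phosphatase that removes phosphate from MAP kinases and is induced when immune cells are activated. With IL-7 alone, the IL-7 receptor signals through JAK and STAT5, and the IL-33 receptor and its NF-kB and MAP kinase arms receive no added ligand.

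Between 11172216 to 15963357 reads per IL-7 library were counted on genes, against 6764992 to 15963357 over all 16 libraries. A floor of 3 counts equals 0.200 to 0.275 CPM, where CPM are counts per TMM-adjusted library size. No molecular identifiers are described, so the floor covers counting error only. Mitochondrially encoded transcripts took 8.60 to 10.2% of the counts, and the 10 most counted genes took 15.3 to 17.5%. Of the 14 ILC2 markers, which include *Gata3*, *Rora*, *Il1rl1*, *Klrg1*, and *Thy1*, 14 were above the floor in all 4 libraries, and their summed level was 19511 to 21246 CPM in WT and 20996 to 21108 CPM in Pac1-/- libraries. The correlation of log2(CPM + 1) between replicates across the 10912 genes tested was 0.859 for WT and 0.856 for Pac1-/- libraries. Counts of single genes were uneven between replicates: 334 genes had 0 counts in 1 WT library and at least 100 in the other, and 325 genes did so between the Pac1-/- libraries.

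The targeted gene *Dusp2* (ENSMUSG00000027368; chromosome 2, 127336159 to 127338376, mm10) had 0 counts in both Pac1-/- libraries, and 0 and 57 counts in the WT libraries. It was too low to be tested, and *Dusp2* alone cannot tell the WT library without counts from the Pac1-/- libraries. Within 10 Mb on either side of *Dusp2*, 6 of 146 genes tested had an unadjusted P value under 0.05, or 4.11%, close to the 5.74% of all genes tested.

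Genotypes were compared with edgeR's quasi-likelihood test, and calls required a 1.5-fold difference together with an adjusted P value (Benjamini-Hochberg) under 0.05. Of 10912 genes tested, 1 was called (0.00916%), and 626 (5.74%) had an unadjusted P value under 0.05, of which 294 (2.69%) were higher and 332 (3.04%) lower in Pac1-/- ILC2s. In 1856 genes (17.0%), both Pac1-/- libraries lay above both WT libraries, and in 1858 genes (17.0%) both lay below. The median log2 fold change of Pac1-/- over WT was -0.00062. By the Wald test of DESeq2, at the same thresholds, the calls were 160 of 21451 genes with counts (0.746%), 71 higher and 89 lower in Pac1-/- ILC2s, against the 1 call of edgeR. The plot of level and change shows that the widest differences belong to genes with few counts.

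**Figure D1:**
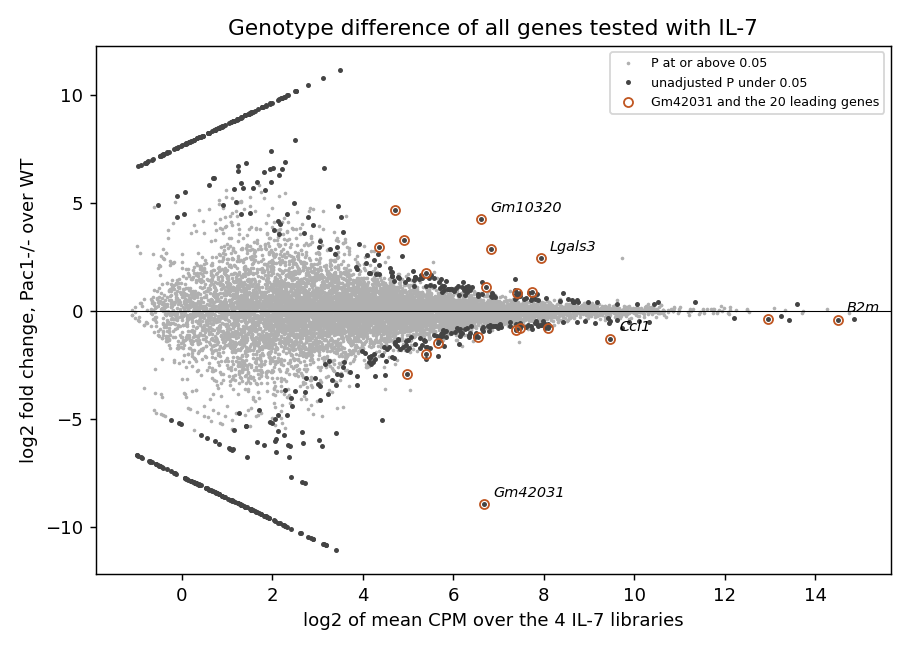
Each point is a gene tested with IL-7, with log2 of its mean CPM over the 4 libraries on the x axis and the log2 fold change of Pac1-/- over WT on the y axis. Dark points have an unadjusted P value under 0.05, the circles mark *Gm42031* and the 20 leading genes, and the straight lines of dark points at the outer edges are genes with 0 counts in both libraries of 1 genotype.

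Such all-or-none genes were equally frequent in both directions, 129 tested genes with 0 counts in both WT libraries and more than 3 in both Pac1-/- libraries, and 129 with the reverse. Of these, 3 that were chosen after their values were seen give the scale. *Spp1*, which encodes the secreted phosphoprotein osteopontin, had 0 counts in both WT and 127 and 302 in Pac1-/- libraries, at least 73.7-fold higher against a floor of 3 counts per library, and 0 counts in all 12 libraries with IL-33. *Klra4*, a receptor of the Ly49 family of NK cells, had 0 counts in both WT and 134 and 202 counts in Pac1-/- libraries, at least 58.3-fold higher, and at most 2 counts in any other library. *Rtp4*, an interferon-induced chaperone of G protein–coupled receptors, had 284 and 122 counts in WT and 0 in both Pac1-/- libraries, at least 60.3-fold lower, yet it was counted in all 6 Pac1-/- libraries with IL-33, at 3.44 to 10.5 CPM. None of the 3 passed the adjustment (edgeR adjusted P = 0.726 for each). All-or-none genes passed the filter on low counts only through the genotype with counts, also where they are counted as list members below.

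The gene called was *Gm42031* (ENSMUSG00000110386; chromosome 8, 85125872 to 85132289), a long noncoding RNA gene, with 2924 and 2375 counts in WT and 4 and 6 counts in Pac1-/- libraries. It had 195 and 218 CPM in WT and 0.348 and 0.475 CPM in Pac1-/- libraries, a log2 fold change of -8.93 (SE 0.37) and an edgeR adjusted P value of 0.0343. The same gene was low in the Pac1-/- libraries of the other treatments, at 0.326 to 7.62 CPM, against 177 to 394 CPM in the WT libraries. Transcripts of 8 other genes share stretches of at least 100 bases at 95% identity or more with it. The closest by length, *Gm26880*, had at most 4 counts in any of the 4 libraries. Over the alternative settings that tested *Gm42031*, those with 1 library left out included, its log2 fold change ran from -9.17 to -8.72. The levels of *Gm42031* did not overlap between the genotypes in any treatment.

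Other genes that led the comparison share nearly all of their sequence with a second gene, and for these the counts of both members of the pair were set side by side. *mt-Nd3*, which encodes a subunit of respiratory complex I on the mitochondrial genome (M, 9459 to 9806), and *Gm28438*, an unprocessed pseudogene on chromosome 1 (24612775 to 24613119), are aligned over 345 bases with 1 mismatch. The first 60 bases of both GENCODE M21 transcripts are shown because this mismatch is the only base that differs within the alignment, and it is in capitals:
mt-Nd3: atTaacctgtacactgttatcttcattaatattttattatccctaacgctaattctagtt
Gm28438: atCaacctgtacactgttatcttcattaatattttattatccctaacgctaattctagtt
The substitution from *mt-Nd3* to *Gm28438* is T3C, counted from the first base of the transcript.

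With IL-7, *mt-Nd3* had 19 and 55 counts in WT and 344 and 310 counts in Pac1-/- libraries, and *Gm28438* had 693 and 413 and then 15 and 15. The genes thus differed in opposite directions, with log2 fold changes of 3.11 (SE 0.97) and -5.06 (SE 0.65). Of the counts of the pair, *mt-Nd3* held 2.67% and 11.8% in WT and 95.8% and 95.4% in Pac1-/- libraries. Over all 16 libraries, the share was 2.67% to 17.7% in WT and 87.8% to 96.8% in Pac1-/- libraries, without overlap. The sum of the pair was 47.4 and 42.9 CPM in WT against 31.3 and 25.7 CPM in Pac1-/- libraries, a log2 ratio of the means of -0.66, closer to 0 than the fold change of either gene.

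*Gm10320* is the protein-coding gene with the smallest P value among those higher in Pac1-/- ILC2s. Its transcript and that of *Sec61b*, which encodes the beta subunit of the SEC61 channel of the endoplasmic reticulum, are aligned over 474 bases at 98.3% identity. A coding stretch of 60 bases is shown with the 2 bases that differ in it in capitals, bases 280 to 339 of the *Gm10320* transcript (chromosome 13, 98489348 to 98492001) and 322 to 381 of the *Sec61b* transcript (chromosome 4, 47474658 to 47483242):
Gm10320: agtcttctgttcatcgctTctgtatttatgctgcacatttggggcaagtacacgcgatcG
Sec61b: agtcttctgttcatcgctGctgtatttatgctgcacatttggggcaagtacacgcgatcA
From *Gm10320* to *Sec61b* the substitutions are T19G and G60A, counted from the first base shown.

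*Gm10320* had 8.66 and 10.7 CPM in WT and 211 and 162 CPM in Pac1-/- libraries, a log2 fold change of 4.27 (SE 0.32) at an edgeR adjusted P of 0.228. *Sec61b* had 772 and 564 CPM in WT and 482 and 417 CPM in Pac1-/- libraries, a log2 fold change of -0.57 (SE 0.20) in the opposite direction. Their sum was 780.3 and 575 CPM in WT and 694 and 579 CPM in Pac1-/- libraries, with overlap between the genotypes and a log2 ratio of the means of -0.09. The share of *Gm10320* in the pair was 0.657% to 2.47% in the 8 WT libraries of the series and 25.6% to 30.4% in the 8 Pac1-/- libraries. Another pair, *Gm5905* and the ribosomal protein gene *Rps9*, aligned over 585 bases at 97.3% identity, had a share of *Gm5905* of 0.536% to 1.44% in WT and 2.51% to 2.91% in Pac1-/- libraries. For *Gm15446*, aligned with the zinc finger gene *Zfp932* over 1765 bases at 97.4% identity, the sum of the pair was 62.1 and 36.2 CPM in WT and 35.1 and 121 CPM in Pac1-/- libraries, and the genotypes overlapped in it. The handling of multimapping reads is not given in the sources used here, so counts of these genes are uncertain between the members of a pair. Why the shares differ between the genotypes was not tested.

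**Figure D2:**
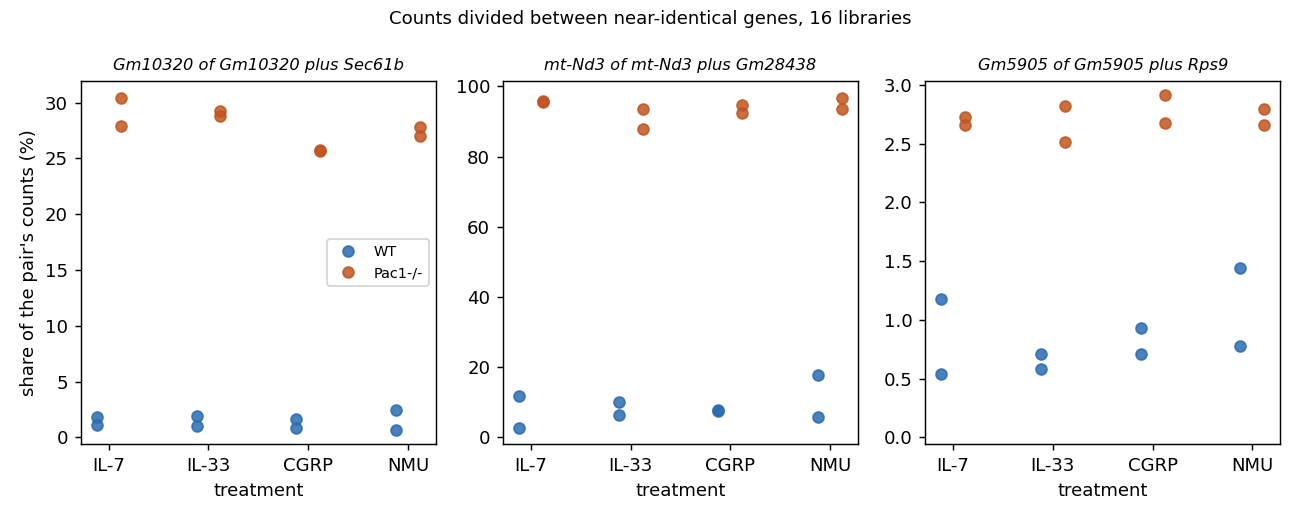
Each point is 1 of the 16 libraries, by treatment on the x axis (CGRP and NMU stand for these with IL-33), and the y axis is the share in percent of the counts of 2 near-identical genes that went to the first of them, with WT in blue and Pac1-/- in orange. In the 3 pairs the genotypes are apart in every treatment, IL-7 included.

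The genes that led the comparison were the 10 in each direction with the smallest P value among those that code for protein, average 20 CPM or more, and show no overlap between the genotypes. Their no-overlap pattern and P values chose them and are given as a description. On the side of higher levels in Pac1-/- ILC2s these were *Gm10320*, *Lgals3*, *Hamp*, *Dlst*, *Tnip3*, *Rnase4*, *Gm15446*, *Mtpn*, *Gzma*, and *Rbm12*, with log2 fold changes of 0.85 to 4.66. On the side of lower levels these were *Ccl1*, *Pdcd7*, *Fam107b*, *Echs1*, *Rb1cc1*, *Akr1b3*, *B2m*, *Gtpbp4*, *H2afz*, and *Rabgap1l*, with log2 fold changes of -2.90 to -0.37. None of the 20 passed edgeR's adjustment, with an adjusted P value of 0.228 for *Gm10320* and *Lgals3* and 0.726 for the other 18, whereas DESeq2 called 10 of the 10 higher and 8 of the 10 lower genes.

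**Figure D3:**
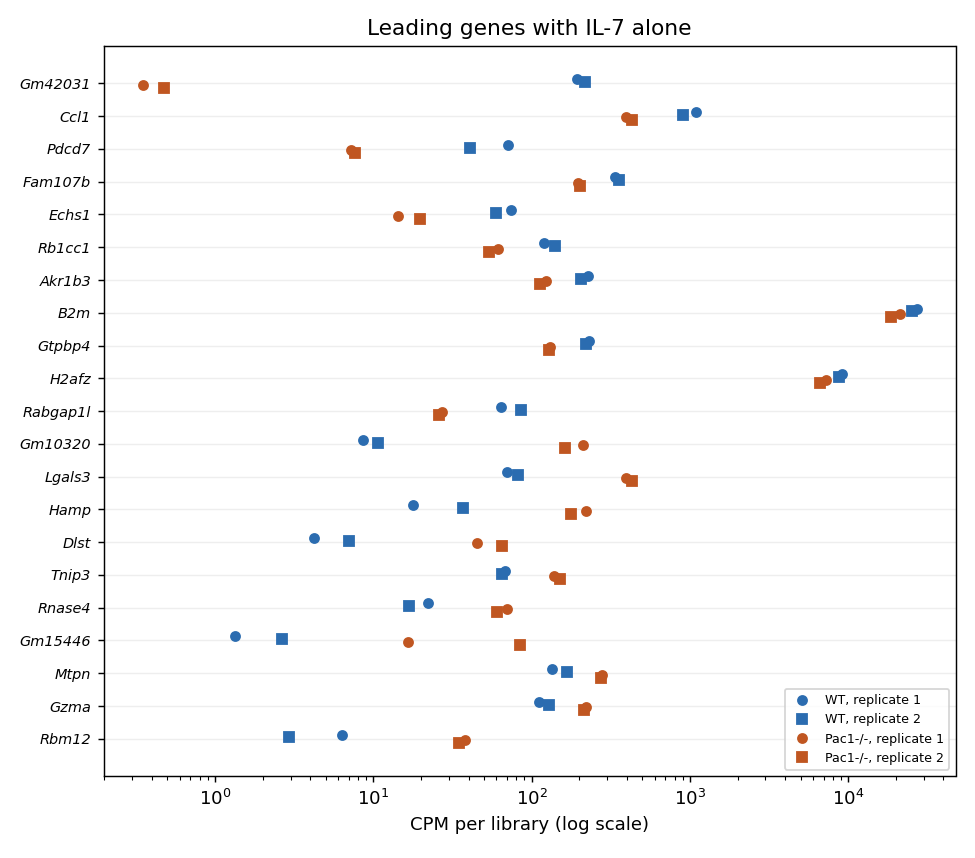
CPM of *Gm42031* and the 20 leading genes in each of the 4 IL-7 libraries, on a log scale, with circles for replicate 1 and squares for replicate 2. WT (blue) and Pac1-/- (orange) libraries do not overlap in any of these genes, as the rule for choosing them required.

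*Lgals3* (ENSMUSG00000050335; chromosome 14, 47367751 to 47386160) encodes galectin-3, a galactoside-binding lectin that is secreted by many immune cells. It had 69.8 and 81.6 CPM in WT and 393 and 431 CPM in Pac1-/- libraries, a log2 fold change of 2.44 (SE 0.19), or 5.44 times the WT level. No other gene has a near-identical stretch of at least 100 bases with it. The 12 libraries with IL-33 had not been used in choosing it, and there *Lgals3* was called, with a log2 fold change of 2.27 (SE 0.35) and an edgeR adjusted P value of 0.0354. Its level was 15.4 to 159 CPM in the 6 WT and 199 to 877 CPM in the 6 Pac1-/- libraries of those treatments, without overlap.

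*Hamp*, which encodes the iron-regulatory hormone hepcidin, had 17.8 and 36.9 CPM in WT and 222 and 176 CPM in Pac1-/- libraries. Its log2 fold change of 2.86 (SE 0.44) with IL-7 compared with 0.35 (SE 0.74) in the 12 libraries with IL-33, where the treatments went apart, at 1.15 with IL-33 alone, -2.26 with CGRP, and 1.46 with NMU. *Dlst*, the succinyltransferase of the oxoglutarate dehydrogenase complex, had 4.20 and 7.05 CPM in WT and 45.2 and 64.6 CPM in Pac1-/- libraries, a log2 fold change of 3.29 (SE 0.57). *Rbm12*, an RNA-binding protein gene, had 6.33 and 2.93 CPM in WT and 37.7 and 34.7 CPM in Pac1-/- libraries, and *Rnase4*, a secreted ribonuclease, 22.2 and 16.8 CPM and then 70.1 and 60.1 CPM. In the test of the difference between IL-7 and the other treatments, these 4 genes and *Mtpn* had unadjusted P values under 0.05, with differences in log2 fold change of 2.73 (SE 0.98), 2.61 (SE 0.87), 2.47 (SE 0.84), 2.01 (SE 0.66), and 1.04 (SE 0.33). None of them passed the adjustment in that test. It includes the IL-7 libraries by which these genes were chosen, and this favours small P values.

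Among the 10 leading genes on the higher side, *Tnip3*, *Mtpn*, and *Gzma* had the smallest differences. *Tnip3* encodes ABIN-3, an A20-binding inhibitor of NF-kB, and had 67.7 and 65.0 CPM in WT and 138 and 152 CPM in Pac1-/- libraries, a log2 fold change of 1.12 (SE 0.23). *Mtpn*, which encodes the ankyrin-repeat protein myotrophin, had 135 and 168 CPM in WT and 277 and 273 CPM in Pac1-/- libraries, a log2 fold change of 0.86 (SE 0.20). *Gzma*, the granzyme A of cytotoxic lymphocytes, had 112 and 129.7 CPM in WT and 222 and 214 CPM in Pac1-/- libraries, a log2 fold change of 0.85 (SE 0.20). In the libraries with IL-33, *Gzma* had 0 counts in 11 of 12 and 79 counts in the other, so it was not tested there.

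Among the lower genes, the chemokine gene *Ccl1* (ENSMUSG00000020702; chromosome 11, 82176657 to 82305690), whose product attracts cells with the receptor CCR8, had 1089.9 and 908 CPM in WT and 397 and 431 CPM in Pac1-/- libraries, a log2 fold change of -1.27 (SE 0.15). The higher Pac1-/- library thus lay well under the lower WT library. With IL-33 alone its log2 fold change was -1.15, near that with IL-7, whereas it was -0.33 with CGRP and 1.17 with NMU. Over these 12 libraries it was -0.11 (SE 0.33), a difference in log2 fold change of -1.17 (SE 0.32) between IL-7 and the other treatments. *Pdcd7*, a protein of the minor spliceosome, had 70.9 and 40.8 CPM in WT and 7.23 and 7.68 CPM in Pac1-/- libraries. *Echs1*, the short-chain enoyl-CoA hydratase of mitochondrial fatty acid oxidation, had 74.5 and 59.8 CPM in WT and 14.4 and 19.7 CPM in Pac1-/- libraries. For *Rabgap1l*, a Rab GTPase-activating protein, the values were 63.8 and 85.1 CPM and 27.2 and 26.0 CPM, and for *Rb1cc1*, the autophagy-initiating FIP200, 120.1 and 141 CPM and 61.5 and 53.7 CPM.

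*Fam107b* (337 and 356 CPM in WT and 197 and 202 CPM in Pac1-/- libraries), the aldose reductase gene *Akr1b3* (226 and 207 CPM in WT and 124 and 113 CPM in Pac1-/- libraries), and the nucleolar GTPase gene *Gtpbp4* (229 and 219 CPM in WT and 130.4 and 129.7 CPM in Pac1-/- libraries) had log2 fold changes of -0.80, -0.87, and -0.79. The genes with the highest CPM per kilobase among the 20, *B2m* and *H2afz*, had the smallest differences. *B2m*, which encodes the light chain of MHC class I molecules, had 27124 and 25444 CPM in WT and 21389.8 and 18569.9 CPM in Pac1-/- libraries, a log2 fold change of -0.40 (SE 0.09), and *H2afz*, which encodes the histone variant H2A.Z, had 9200.1 and 8739 CPM in WT and 7281 and 6627 CPM in Pac1-/- libraries, a log2 fold change of -0.37 (SE 0.086). Both were also lower in Pac1-/- ILC2s in the libraries with IL-33, with log2 fold changes of -0.49 (SE 0.22) and -0.84 (SE 0.25), without passing the adjustment there. With NMU both were close to 0, at -0.042 and -0.035.

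In the 12 libraries with IL-33, with treatment as a covariate, 10 of 13960 genes tested were called between the genotypes (0.0716%), and 758 (5.43%) had an unadjusted P value under 0.05. *Gm42031*, *Gm10320*, *Gm28438*, *Gm15446*, and *Lgals3*, described above for IL-7, were among them. Of the 20 leading genes, 19 were tested in those libraries, and 13 had the same direction, 7 of the higher and 6 of the lower ones. Over the 561 genes with an unadjusted P value under 0.05 with IL-7 that were tested in the 12 libraries, 314 (56.0%) had the same direction, against 50.9% of all 10634 genes tested in both. The same direction with a P value under 0.05 in both was found for 43 genes (7.66%), and the opposite direction for 15 (2.67%). Of all 10634 genes, 2.54% had a P value under 0.05 in the 12 libraries and the same direction in both.

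Of these 43 genes, 18 were higher and 25 lower in Pac1-/- ILC2s, and in 8 of the 43 the genotypes did not overlap over all 16 libraries. The 43 were chosen by P values from the same 16 libraries, which favours such separation. Its share over all genes was not counted, so the 8 are a description only. *Trdc*, the constant segment of the T cell receptor delta chain, had 7.72 and 9.16 CPM in WT and 53.6 and 46.8 CPM in Pac1-/- libraries with IL-7 and a log2 fold change of 3.54 (SE 0.67) in the others. *Stab2*, a scavenger receptor, had 67.3 and 45.5 CPM in WT and 159 and 124 CPM in Pac1-/- libraries with IL-7 and 1.19 (SE 0.25) in the others. *Trdv4*, a variable segment of the delta locus, went the other way from *Trdc*. It had 3094 and 2478 counts in WT and 1313 and 1596 counts in Pac1-/- libraries with IL-7. Its log2 fold change was -0.85 (SE 0.20) with IL-7 and -0.90 (SE 0.26) in the others. Transcripts of 27 other genes share near-identical stretches with *Trdc*. *Trdc*, *Trdv4*, and *Stab2* were chosen after their values were seen, and in each the genotypes overlapped over the 16 libraries. For a difference between IL-7 and the other treatments, edgeR called 0 of 14979 genes tested over the 16 libraries, with 691 (4.61%) at an unadjusted P value under 0.05, and DESeq2 called 160. Of the 20 leading genes, 5 of the higher and 5 of the lower ones had an unadjusted P value under 0.05 in that test. The 20 were chosen by their IL-7 difference, which is a part of that test. The choice favours small P values there, so this count is a description only.

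**Figure D4:**
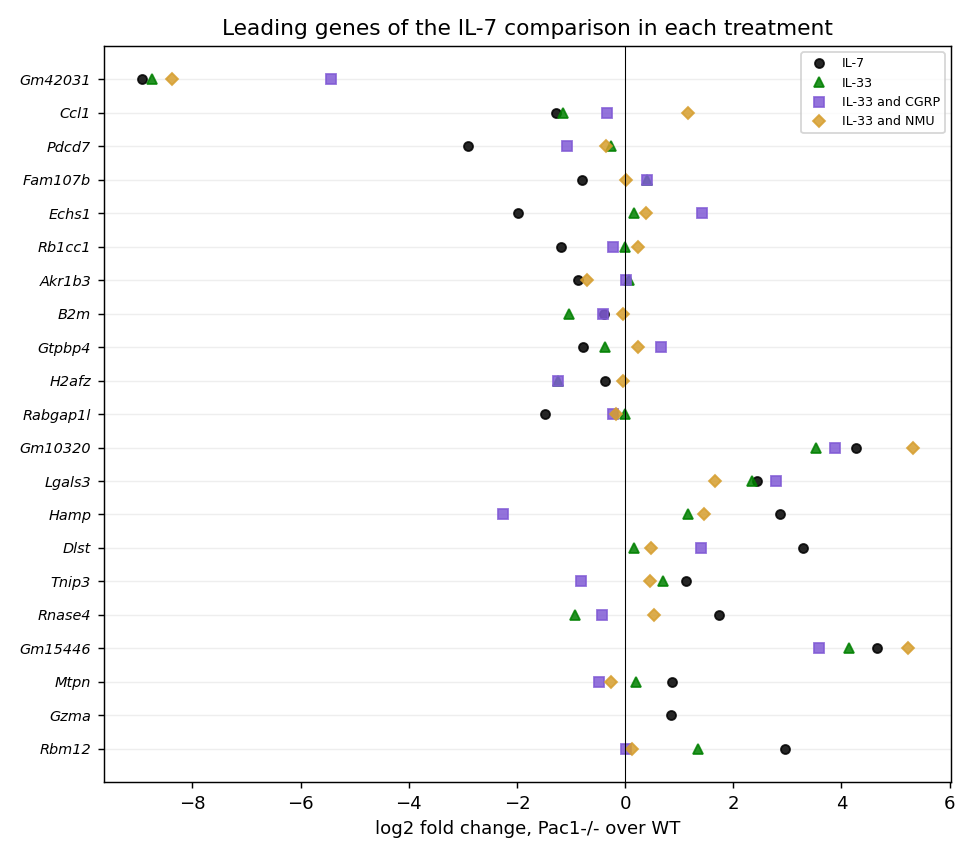
Log2 fold change of Pac1-/- over WT for *Gm42031* and the 20 leading genes of the IL-7 comparison, in each treatment tested on its own 4 libraries (a missing point was not tested). *Gm42031*, *Gm10320*, *Gm15446*, and *Lgals3* keep their side in all 4 treatments, whereas *Hamp*, *Ccl1*, and *Echs1* have points on both sides of 0.

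The members of 35 pathway and gene family lists, 941 genes of which 760 were tested, gave 0 calls. At an unadjusted P value under 0.05 there were 49 of the 760 (6.45%), 21 higher and 28 lower in Pac1-/- ILC2s, next to 5.74% of all genes tested. The medians of the lists ran from -1.85 for MHC class II to 0.49 for type 1 and cytotoxic genes on the log2 scale. The medians moved with single libraries, and for 21 of the 35 lists the sign turned when 1 library was left out. For MHC class II the median was -5.73 without Pac1-/- replicate 2, -1.21 without WT replicate 2, and 0.11 with at least 10 counts required in every library, and for type 1 and cytotoxic genes it was 0.16 without Pac1-/- replicate 2 and 0.75 without WT replicate 1. Counts at P under 0.05 in the following are before adjustment, and edgeR's adjusted P was at least 0.726 for every member except *Lgals3*.

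**Figure D5:**
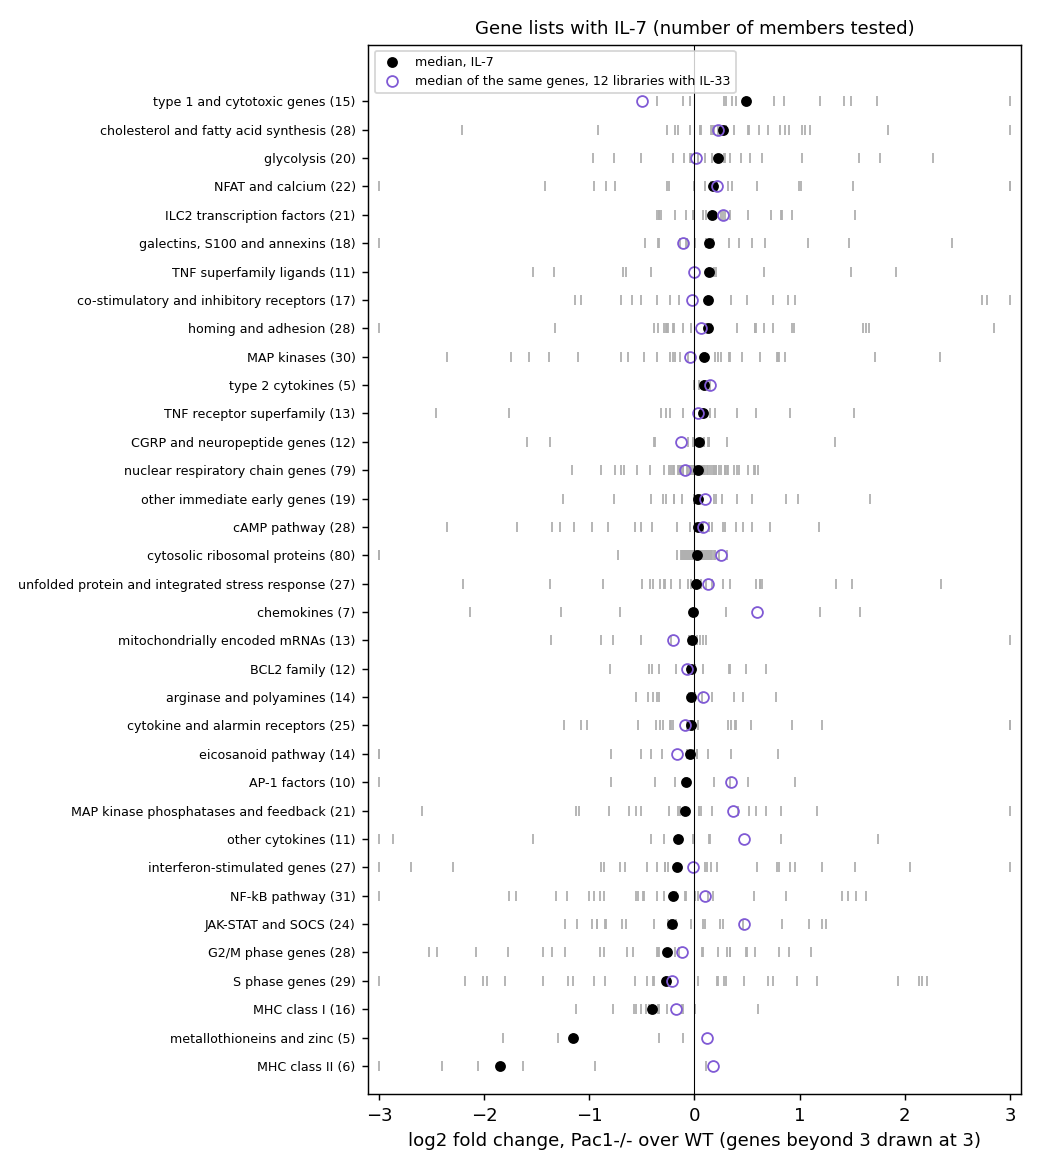
Each row is a list with the number of its members tested with IL-7, each grey tick is a member, and the x axis is the log2 fold change of Pac1-/- over WT, with members beyond 3 drawn at 3. Black dots are the medians with IL-7 and open circles the medians of the same members in the 12 libraries with IL-33; the lists of 5 or 6 members at the bottom have the widest medians.

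Type 2 cytokine genes did not differ between the genotypes beyond the spread of the libraries. *Il5* had 6045 and 5246 CPM in WT and 5704 and 5924 CPM in Pac1-/- libraries, a log2 fold change of 0.043 (SE 0.10). *Il9* had 296 and 283 CPM in WT and 303 and 315 CPM in Pac1-/- libraries, a log2 fold change of 0.094 (SE 0.15), and the epidermal growth factor family member *Areg* had 82.9 and 136 CPM in WT and 119 and 113 CPM in Pac1-/- libraries, a log2 fold change of 0.086 (SE 0.32). *Il4* (22.5 and 26.4 CPM in WT and 17.1 and 36.9 CPM in Pac1-/- libraries) and *Il13* (22.9 and 5.50 CPM in WT and 10.8 and 17.5 CPM in Pac1-/- libraries) were low and overlapped, with log2 fold changes of 0.14 (SE 0.60) and -0.0029 (SE 0.95). Of the 5 members, 0 had a P value under 0.05, and their median log2 fold change was 0.086. The standard errors, 0.10 for *Il5* and 0.95 for *Il13*, set how small a difference could be seen in each.

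Other secreted factors were mixed. *Il6*, an inflammatory cytokine, had 261 and 234 CPM in WT and 515 and 363 CPM in Pac1-/- libraries, a log2 fold change of 0.83 (SE 0.22), and in the 12 libraries with IL-33 its log2 fold change was 1.02 (SE 0.47). This was 2.85 with CGRP, against 0.38 with IL-33 alone and -0.010 with NMU. *Csf2*, which encodes GM-CSF, was abundant and overlapped, with 1475 and 1195 CPM in WT and 1285 and 1117 CPM in Pac1-/- libraries. Among 7 chemokines tested, 0 had a P value under 0.05 on the higher and 2 on the lower side, *Ccl1* and *Cxcl2*. *Cxcl2*, a neutrophil chemokine, had 396 and 298 CPM in WT and 191 and 233 CPM in Pac1-/- libraries, a log2 fold change of -0.71 (SE 0.22). In the 12 libraries with IL-33 its log2 fold change was 0.70 (SE 0.19) on the other side of 0. It was 0.23 with IL-33 alone, 0.55 with CGRP, and 1.31 with NMU. The difference between IL-7 and these treatments, -1.41 (SE 0.29), had an unadjusted P value under 0.05 without passing the adjustment.

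The transcription factors of ILC2s (21 tested, median 0.17) had 1 member higher at P under 0.05, *Ikzf3*, the zinc finger factor Aiolos, with 148 and 106 CPM in WT and 213 and 240.3 CPM in Pac1-/- libraries, a log2 fold change of 0.84 (SE 0.24). *Gata3*, the factor that specifies ILC2s, had 546 and 595 CPM in WT and 718 and 641 CPM in Pac1-/- libraries (log2 fold change 0.25, SE 0.14), and *Id2*, an inhibitor of E proteins that all ILCs need, had 2981 and 2657 CPM in WT and 3046 and 3054 CPM in Pac1-/- libraries (log2 fold change 0.11, SE 0.10). The receptors for cytokines and alarmins (25 tested, median -0.032) included the IL-7 receptor chain *Il7r*, with 897 and 1055 CPM in WT and 867 and 793 CPM in Pac1-/- libraries, and the IL-33 receptor *Il1rl1*, with 842 and 955 CPM in WT and 777 and 766 CPM in Pac1-/- libraries. Their log2 fold changes were -0.23 (SE 0.14) and -0.22 (SE 0.13). *Il2ra*, the high-affinity chain of the IL-2 receptor, had 1277 and 1331 CPM in WT and 1338 and 1213 CPM in Pac1-/- libraries, which overlapped. The member at P under 0.05 was *Il6st*, the signalling chain gp130, with 10 and 4 counts in WT and 143 and 58 counts in Pac1-/- libraries.

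Genes of JAK-STAT signalling and its SOCS inhibitors, the pathway that IL-7 uses, had a median of -0.21 over 24 tested members, with 0 higher and 1 lower at P under 0.05. The median was 0.075 without WT replicate 2 and -0.041 without Pac1-/- replicate 2. The feedback inhibitor *Socs2* had 119 and 169 CPM in WT and 71.8 and 80.2 CPM in Pac1-/- libraries, a log2 fold change of -0.93 (SE 0.28). Its log2 fold change in the 12 libraries with IL-33 was -0.37 (SE 0.15). *Cish*, another STAT5-induced inhibitor, had 38.9 and 42.9 CPM in WT and 18.9 and 26.3 CPM in Pac1-/- libraries with IL-7, a log2 fold change of -0.85 (SE 0.45). In the 12 libraries with IL-33, the value for *Cish* was 0.56 (SE 0.21). The difference, -1.41 (SE 0.43), likewise had an unadjusted P value under 0.05 without passing the adjustment. *Jak1*, the kinase of the IL-7 receptor, had 409 and 435 CPM in WT and 426 and 466 CPM in Pac1-/- libraries.

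The MAP kinases are the substrates of PAC1. Of 30 members of their pathway tested, 1 was higher at P under 0.05 and 0 lower, a share near the 5.74% of all genes tested, with a median of 0.089. This was *Map2k2*, which encodes MEK2, at 8.79 and 9.35 CPM in WT and 36.2 and 23.5 CPM in Pac1-/- libraries, a log2 fold change of 1.72 (SE 0.61). Among the other phosphatases and feedback regulators of MAP kinases, 21 were tested and 0 had a P value under 0.05 (median -0.094). *Dusp10* (196 and 687 counts in WT and 126 and 21 counts in Pac1-/- libraries) and *Dusp1* (16.9 and 14.1 CPM in WT and 32.1 and 22.8 CPM in Pac1-/- libraries), phosphatases of the same family as PAC1, had log2 fold changes of -2.59 (SE 1.26) and 0.82 (SE 0.56). Immediate early genes downstream of these kinases had 1 of 19 members higher at P under 0.05, *Nr4a1*, an orphan nuclear receptor. It had 35.6 and 40.3 CPM in WT and 65.3 and 73.7 CPM in Pac1-/- libraries, a log2 fold change of 0.87 (SE 0.32). In the 12 libraries with IL-33 its log2 fold change was 0.67 (SE 0.21). AP-1 factors gave 0 of 10.

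Of the CGRP and neuropeptide genes, 12 were tested and 0 had a P value under 0.05 with IL-7 (median 0.04). Both Pac1-/- libraries lay above both WT libraries for 1 and below for 2, against 17.0% of all genes tested on each side. *Calca*, which encodes CGRP itself, had 6437 and 5702 CPM in WT and 5782 and 5812 CPM in Pac1-/- libraries, a log2 fold change of -0.065 (SE 0.094). The receptor genes *Calcrl* and *Ramp1*, which together form the CGRP receptor, had 72.2 and 79.1 CPM and 177 and 144 CPM in WT and 57.8 and 58.6 CPM and 210.2 and 143 CPM in Pac1-/- libraries, and the NMU receptor gene *Nmur1* had 2.53 and 0 CPM and then 3.92 and 2.53 CPM. In the cAMP pathway, through which CGRP acts, 0 members were higher and 2 lower at P under 0.05 among 28 tested (median 0.033). These were the CREB family member *Creb3l2*, with 84.8 and 88.4 CPM in WT and 48.6 and 39.6 CPM in Pac1-/- libraries, and *Rgs1*, a regulator that shuts off G protein signalling, with 892 and 771 CPM in WT and 486 and 635 CPM in Pac1-/- libraries.

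In the NF-kB pathway, 1 member was higher and 4 were lower at P under 0.05 among 31 tested, and the median was -0.21, or -0.31 to -0.23 with 1 library left out. Both Pac1-/- libraries lay below both WT libraries for 11 members and above for 2, where all genes tested divide evenly (17.0% on each side). The atypical inhibitor *Nfkbid* had 36.5 and 32.1 CPM in WT and 5.75 and 2.77 CPM in Pac1-/- libraries, a log2 fold change of -3.01 (SE 0.71). *Traf3*, an adaptor that restrains the noncanonical arm, had 52.5 and 64.5 CPM in WT and 15.9 and 20.3 CPM in Pac1-/- libraries, a log2 fold change of -1.69 (SE 0.41), and the ubiquitin ligase *Birc2* had 44.2 and 43.0 CPM in WT and 11.4 and 14.2 CPM in Pac1-/- libraries, a log2 fold change of -1.76 (SE 0.48). *Rel*, which encodes the subunit c-Rel, had 69.8 and 91.3 CPM in WT and 31.2 and 38.5 CPM in Pac1-/- libraries, a log2 fold change of -1.21 (SE 0.34). The member higher was *Traf6*, a ubiquitin ligase of the IL-1 receptor family, with 12.7 and 11.7 CPM in WT and 44.8 and 30.9 CPM in Pac1-/- libraries, a log2 fold change of 1.63 (SE 0.52). *Nfkbia*, the classical inhibitor IkB alpha, had 907 and 760.3 CPM in WT and 657 and 706 CPM in Pac1-/- libraries (log2 fold change -0.29, SE 0.15). In the 12 libraries with IL-33 the median of the list was 0.10 (0.43 with IL-33 alone, 0.19 with CGRP, and -0.16 with NMU), and the log2 fold change of *Traf3* there was 0.94 (SE 0.43). For 5 of the members the difference between IL-7 and the other treatments had an unadjusted P value under 0.05, against 4.61% of all genes, and 0 passed the adjustment.

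Calcium and NFAT signalling showed 3 members higher and 0 lower at P under 0.05 among 22 tested, with a median of 0.18. Over all genes tested, 2.69% were higher and 3.04% lower at that level. *Rcan3*, a regulator of calcineurin, had 0 counts in both WT and 176 and 95 counts in Pac1-/- libraries, and *Plcg2*, a phospholipase C, had 0 and then 21 and 44, so that both belong to the all-or-none genes. Both passed the filter on low counts only through their Pac1-/- libraries, so the 3 against 0 is a description only. *Orai1*, the pore of the store-operated calcium channel, had 16.2 and 12.9 CPM in WT and 32.1 and 50.9 CPM in Pac1-/- libraries, a log2 fold change of 1.51 (SE 0.52).

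Among the co-stimulatory and inhibitory receptors, 2 members were higher and 2 lower at P under 0.05 (17 tested, median 0.13). *Icos*, a costimulator of ILC2s, had 391 and 319 CPM in WT and 495 and 506 CPM in Pac1-/- libraries, a log2 fold change of 0.50 (SE 0.16). *Klrg1*, an inhibitory lectin-like receptor and marker of mature ILC2s, had 1283 and 944 CPM in WT and 759.7 and 801 CPM in Pac1-/- libraries, a log2 fold change of -0.51 (SE 0.18). *Cd69*, an activation marker that retains lymphocytes in tissue, had 222 and 296 CPM in WT and 176 and 144 CPM in Pac1-/- libraries, a log2 fold change of -0.70 (SE 0.23). *Cd200*, an inhibitory surface glycoprotein, had 0 counts in both WT libraries and 14 and 22 in Pac1-/- libraries. Of the TNF receptor superfamily (13 tested, median 0.086), *Tnfrsf4*, which encodes OX40, had 25.3 and 35.9 CPM in WT and 6.53 and 4.59 CPM in Pac1-/- libraries, a log2 fold change of -2.46 (SE 0.66), and *Tnfrsf18*, which encodes GITR, had 1365 and 1186 CPM in WT and 1416 and 1509 CPM in Pac1-/- libraries (log2 fold change 0.20, SE 0.12). TNF superfamily ligands gave 0 of 11 at P under 0.05.

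MHC class I genes, which display peptides to CD8+ T cells, mostly lay on the lower side. Of 16 members, all tested, 2 had a log2 fold change above 0 and 14 below, and 3 were lower at P under 0.05. Both Pac1-/- libraries lay below both WT libraries for 8 and above for 0. Over all 10912 genes tested, 5449 were above 0 and 5463 below. Of all genes, 17.0% lay below without overlap, and 3.04% were lower at P under 0.05. The median of the list was -0.40 with IL-7, 0.10 with IL-33 alone, 0.22 with CGRP, and -0.55 with NMU. The classical heavy chain gene *H2-D1* had 1329 and 1234 CPM in WT and 949 and 914 CPM in Pac1-/- libraries, a log2 fold change of -0.46 (SE 0.11), and *H2-Q7* had 213 and 209.9 CPM in WT and 139 and 148 CPM in Pac1-/- libraries, a log2 fold change of -0.56 (SE 0.18). *B2m*, given above, is the third. Class I heavy chain genes are close paralogs, so counts may be divided between them. MHC class II genes had a median of -1.85 over 6 members, 0 of them at P under 0.05, and interferon-stimulated genes had 1 higher and 1 lower of 27 (median -0.17), *Isg20*, an exonuclease, with 24.4 and 29.7 CPM in WT and 70.3 and 54.7 CPM in Pac1-/- libraries, and *Rtp4*.

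Type 1 and cytotoxic genes had the highest median, 0.49 over 15 members, with 2 higher and 0 lower at P under 0.05. Both Pac1-/- libraries lay above both WT libraries for 8 of them and below for 1. Over all genes tested, 17.0% lay above in this way, 17.0% below, and 2.69% were higher at P under 0.05. Besides *Gzma*, *Nkg7*, a protein of cytotoxic granules, had 56.7 and 58.0 CPM in WT and 100.1 and 93.8 CPM in Pac1-/- libraries, a log2 fold change of 0.76 (SE 0.26), and *Gzmb*, which encodes granzyme B, had 5.33 and 9.71 CPM in WT and 19.9 and 20.4 CPM in Pac1-/- libraries (log2 fold change 1.42, SE 0.75). The median of the list was -1.46 with IL-33 alone, -1.01 with CGRP, and 0.022 with NMU. Markers of NK cells and ILC1s summed to 159 to 175 CPM in WT and 284 to 301 CPM in Pac1-/- libraries, mostly through *Gzma*. Of these 7 markers, 4 were tested, with a median of 1.30. Both Pac1-/- libraries lay above both WT libraries in all 4, against 17.0% of all genes tested. All 4 are also members of the type 1 and cytotoxic list, so they are the same genes described again. *Prf1* passed the filter on low counts only through its Pac1-/- libraries, which favours its side in both lists. *Klrb1c*, an NK cell receptor, had 5.53 and 1.65 CPM in WT and 8.89 and 15.1 CPM in Pac1-/- libraries, *Klrd1*, which encodes CD94, had 41.4 and 40.7 CPM and then 45.0 and 69.9 CPM, and *Prf1*, the pore-forming perforin, had 5 and 0 counts and then 68 and 12. Of the 3 not tested, *Tbx21* had 0 counts in all 4 libraries, *Eomes* had 0 and 29 counts in WT and 0 and 8 in Pac1-/- libraries, and *Ncr1* had 0 in both WT and 31 and 0 in Pac1-/- libraries. In bulk samples, fewer cells of a type and less RNA per cell cannot be told apart, and the part of such cells in the result was not tested.

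Markers of other cells were low or alike between the genotypes with some exceptions. B cell and plasma cell markers summed to 124 to 179 CPM in WT and 72.8 to 82.6 CPM in Pac1-/- libraries. Within that list *Ighm*, the heavy chain of IgM, had 82.7 and 84.3 CPM in WT and 21.4 and 32.7 CPM in Pac1-/- libraries, a log2 fold change of -1.62 (SE 0.37), and *Igkc*, the kappa light chain, had 34.6 and 57.5 CPM in WT and 18.1 and 17.8 CPM in Pac1-/- libraries, a log2 fold change of -1.36 (SE 0.49), while *Cd79b*, a chain of the B cell receptor complex, had 6.13 and 28.8 CPM in WT and 42.2 and 22.3 CPM in Pac1-/- libraries, with overlap (log2 fold change 0.88, SE 0.89), and *Jchain* had 0 counts throughout. Endothelial markers summed to 37.6 to 45.7 CPM in WT and 15.5 to 16.3 CPM in Pac1-/- libraries, nearly all of it from *Pecam1*. T cell markers summed to 1016 to 1041 CPM in WT and 1067 to 1069 CPM in Pac1-/- libraries, led by the constant segments *Trbc1* and *Trbc2*, with 0 counts of *Cd4* and *Cd8a*. Macrophage and monocyte markers summed to 18.0 to 19.1 CPM in WT and 12.3 to 15.1 CPM in Pac1-/- libraries, dendritic cell markers to 48.3 to 73.2 CPM in WT and 39.9 to 59.2 CPM in Pac1-/- libraries, mast cell and basophil markers to 26.6 to 49.9 CPM in WT and 30.1 to 63.9 CPM in Pac1-/- libraries, and lung epithelial markers to 30.4 to 38.7 CPM in WT and 14.7 to 40.9 CPM in Pac1-/- libraries. Neutrophil markers summed to 0 to 0.200 CPM in WT and 0.261 to 0.554 CPM in Pac1-/- libraries, fibroblast markers to 0.275 to 1.60 CPM in WT and 0.871 to 1.03 CPM in Pac1-/- libraries, and erythroid and platelet markers summed to 11.9 to 33.8 CPM in WT and 14.8 to 31.4 CPM in Pac1-/- libraries.

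Metabolic lists had small medians. For cholesterol and fatty acid synthesis, it was 0.27 (0.51 without Pac1-/- replicate 1, 0.48 without WT replicate 1, and 0.19 without Pac1-/- replicate 2) over 28 members. Of these, 22 were above 0, as were 5449 of all 10912 genes tested. Both Pac1-/- libraries lay above both WT libraries for 9 members and below for 0, against 17.0% of all genes on each side. The sterol oxidase *Msmo1* had 298 and 349.8 CPM in WT and 489.9 and 439 CPM in Pac1-/- libraries, a log2 fold change of 0.52 (SE 0.16), and *Sc5d*, a desaturase of the same pathway, had 326 and 209.8 CPM in WT and 383 and 379 CPM in Pac1-/- libraries (log2 fold change 0.51, SE 0.25). The median was 0.48 with IL-33 alone, -0.26 with CGRP, and 0.12 with NMU. Glycolysis had 1 of 20 members higher at P under 0.05 (median 0.23), the platelet-type phosphofructokinase gene *Pfkp*, with 25.4 and 10.7 CPM in WT and 51.3 and 55.9 CPM in Pac1-/- libraries, and the nuclear genes of the respiratory chain had 1 higher and 2 lower of 79 (median 0.038). The 80 cytosolic ribosomal protein genes tested had a median of 0.027, with 1 lower at P under 0.05, *Rpl36al*, which had 43 and 41 counts in WT and 0 in both Pac1-/- libraries.

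Genes of DNA replication and mitosis, which mark dividing cells, had medians below 0, which turned above 0, to 0.034 and 0.074, when at least 10 counts were required in every library. With 1 library left out, the S phase median ran from -0.45 without WT replicate 1 to -0.12 without Pac1-/- replicate 1. The G2/M median was -1.50 without Pac1-/- replicate 2, -0.48 without WT replicate 2, -0.39 without Pac1-/- replicate 1, and -0.051 without WT replicate 1. The S phase list had 1 member higher and 3 lower at P under 0.05 among 29 tested, with a median of -0.27, and the G2/M list had 0 higher and 1 lower of 28, with a median of -0.26. The members were not uniform: *Casp8ap2* had 40.2 and 45.1 CPM in WT and 76.1 and 115 CPM in Pac1-/- libraries, while the helicase gene *Blm* had 31.5 and 27.1 CPM in WT and 8.97 and 3.96 CPM in Pac1-/- libraries and the origin licensing gene *Cdc6* had 28 and 88 counts in WT and 0 in both Pac1-/- libraries. *Rrm1*, the large subunit of ribonucleotide reductase, had 20.8 and 47.9 CPM in WT and 10.5 and 6.49 CPM in Pac1-/- libraries. *Pcna*, the sliding clamp of DNA replication, had 289 and 288 CPM in WT and 252 and 169 CPM in Pac1-/- libraries (log2 fold change -0.46, SE 0.24). *Hmgb2*, a chromatin protein and the G2/M member at P under 0.05, had 356 and 274 CPM in WT and 217 and 203 CPM in Pac1-/- libraries, a log2 fold change of -0.58 (SE 0.20). In the 12 libraries with IL-33 the S phase and G2/M medians were -0.21 and -0.12.

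Of the single members at P under 0.05 in the other lists, the chemokine receptor gene *Ccr1* had 1.53 and 3.21 CPM in WT and 20.9 and 13.4 CPM in Pac1-/- libraries. *Anxa4*, a calcium-dependent phospholipid-binding annexin, had 12.3 and 29.2 CPM in WT and 0 and 0.791 CPM in Pac1-/- libraries, and *Ptges3*, the HSP90 cochaperone p23, had 955 and 841 CPM in WT and 679.5 and 669.7 CPM in Pac1-/- libraries. The zinc transporter gene *Slc30a5* had 93.2 and 53.2 CPM in WT and 25.8 and 33.9 CPM in Pac1-/- libraries, and *Tbxas1*, the thromboxane synthase, had 60 and 13 counts in WT and 0 and 0 in Pac1-/- libraries. The remaining lists had few members at P under 0.05, namely homing and adhesion (1 higher and 0 lower of 28, median 0.13), galectins, S100 proteins, and annexins (1 higher and 1 lower of 18, median 0.14), the eicosanoid pathway (0 higher and 2 lower of 14, median -0.038), the unfolded protein and integrated stress response (0 higher and 0 lower of 27, median 0.012), the BCL2 family (0 higher and 0 lower of 12, median -0.029), arginase and polyamines (0 higher and 0 lower of 14, median -0.03), and metallothioneins and zinc transporters (0 higher and 1 lower of 5, median -1.15, or -0.32 without a filter on low counts, -0.72 without WT replicate 1, and -0.68 without WT replicate 2). The 13 mitochondrially encoded mRNAs had a median of -0.025, with *mt-Nd3* higher and *mt-Nd1*, another complex I subunit, lower at P under 0.05. *mt-Nd1* had 10962 and 10078 CPM in WT and 9287 and 8704 CPM in Pac1-/- libraries, a log2 fold change of -0.23 (SE 0.083).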

How the data were processed

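Lung ILC2s were cultured, lysed, and sequenced as described in the report. The authors deposited raw counts per gene for all 16 libraries, made from paired-end reads aligned with HISAT2 to mm10. The counting tool, annotation, strand setting, and handling of multimapping reads are not given in the sources used here. All 51912 rows were used, of which 51719 were found by identifier in GENCODE M21, which gave names and positions.

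Genotypes were compared with edgeR 4.0.16 (quasi-likelihood F test, 2-sided, TMM factors, filterByExpr) in R 4.3.3 on the 4 IL-7 libraries, on the other 12 libraries with treatment as a covariate, and over all 16 for the difference between them. Adjusted P values are Benjamini-Hochberg values over all genes tested. The SE is the absolute log2 fold change divided by the square root of F. DESeq2 1.42.0 was an alternative. The fits were checked on generated counts. Transcripts were compared with BLAST 2.17.0 (at least 95% identity over 100 bases).

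Genes named are *Dusp2*, *Gm42031* as the gene called, the 10 leading genes in each direction, and ILC2 markers with *Calca*, *Calcrl*, *Ramp1*, and *Nmur1*. Each list is described by up to 3 tested members with the smallest P value and its highest member, and marker lists by single markers. *Spp1*, *Klra4*, *Rtp4*, *Trdc*, *Trdv4*, *Stab2*, *mt-Nd3*, *mt-Rnr1*, *mt-Rnr2*, *Gm28438*, *Gm26880*, *Gm5905*, *Il4*, *Rel*, *Traf6*, *Rrm1*, and near-identical partners were named after their values were seen. The comparison and the gene lists were chosen with earlier results of these data known. Some items are not reported here.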

Additional observations from a re-analysis of the deposited data

How the results depend on the processing

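With IL-7, the 1 call of edgeR became 160 with DESeq2, 78 with DESeq2 after the same filter on low counts (chosen after seeing the data), 28 without the filter, and 2 with at least 10 counts in every library, which excludes *Gm42031* and calls *Gm10320* and *Lgals3*. It became 0 with the bias-adjusted quasi-likelihood fit (chosen after seeing the data; 900 at an unadjusted P value under 0.05). Leaving out 1 library gave 0 to 0 calls (486 to 684 at an unadjusted P value under 0.05). Over genes, the differences between replicate 1 and 2 were not correlated between WT and Pac1-/- libraries (r = -0.00116). This cannot exclude a pairing, since counts of single genes were uneven between replicates. The fit with the replicate block gave 0 calls (280 at an unadjusted P value under 0.05).

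The 10 calls in the 12 other libraries became 107 with DESeq2, 58 after the filter, and 42 without a filter in edgeR, and 6 to 11 with 1 library left out, with 6 without WT NMU replicate 1 or Pac1-/- NMU replicate 1. The 0 calls for the difference between IL-7 and the other treatments became 160, 65, and 24 under the same settings, and 0 to 7 with 1 library left out, with 7 without Pac1-/- IL-7 replicate 2. The causes were not tested.

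The log2 fold change of *Il13* was 0.010 without a filter and 0.29 with the replicate block. With 1 library left out, it was -0.69 to 1.37 for *Il13*, -0.051 to 0.16 for *Il5*, -0.22 to 0.49 for *Areg*, -0.52 to 0.60 for *Il4*, -0.29 to 0.014 for *Csf2*, -0.15 to 0.031 for *Calca*, -0.16 to 0.38 for *Ramp1*, -0.037 to 0.44 for *Ptprc*, and -0.096 to 0.033 for *Il2ra*. Apart from these, the direction of the 87 genes followed was kept under every alternative run.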

Other observations

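The following values were looked up after the genes with an unadjusted P value under 0.05 in both the IL-7 libraries and the 12 others were seen, and they carry no test. Of the 43 genes with the same direction in both, 7 lie on chromosome 14, all between 46775567 and 54254104 (mm10). They are *Cnih1*, *Lgals3*, *Gm26782*, *Hnrnpc*, *Trdv4*, *Trdc*, and *Dad1*, which include galectin-3 and segments of the T cell receptor delta locus. Between these bounds, which the 7 genes themselves set, 11 of 48 genes tested with IL-7 (22.9%) had an unadjusted P value under 0.05. Such a choice of bounds raises the share. Of the 383 genes tested with IL-7 on the whole chromosome, these 7 included, 8.36% had an unadjusted P value under 0.05, against 5.74% of all genes tested. On the other nuclear chromosomes, the share with IL-7 was 3.64% for chromosome 16 at the lowest and 7.44% for chromosome 6 at the highest. Of 16 mitochondrial genes tested, 5 (31.2%) had an unadjusted P value under 0.05, among them *mt-Nd3* and the ribosomal RNA genes *mt-Rnr1* and *mt-Rnr2*, with log2 fold changes of -0.40 and -0.35.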
